A study of Mus musculus with 3 samples.

Results

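Neuropeptides are cut from larger precursor proteins inside dense-core granules, released on sustained firing, and act mostly on G protein-coupled receptors at a distance from the release site. The genes described here are 57 members of this system, chosen by gene symbol from a named list: 21 precursors of peptides or related secreted proteins, 25 receptors, 5 granule proteins and 6 enzymes or regulators of precursor processing. All 57 were found among the 39377 rows of the deposited table. Total RNA came from the hippocampus of C57BL/6 mice, wild type and 14 days old, in 3 libraries of 1 group, here called libraries 1, 2 and 3. No treatment or mutant allele was given for any of them, so the comparisons are between genes inside the same libraries. Whether the libraries came from separate animals or pools was not stated, and p-values therefore cover only library-to-library spread, possibly technical.

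In the hippocampus, most peptides of this list are made by GABAergic interneurons. Somatostatin and neuropeptide Y mark dendrite-targeting cells, vasoactive intestinal peptide marks cells that often contact other interneurons, and cholecystokinin marks a class of basket cells and is also made by pyramidal neurons. Dynorphin and enkephalin are known from granule cells and their mossy fibres. In the secretory path, the convertases PC1/3 and PC2 cut at pairs of basic residues, carboxypeptidase E trims the cut ends, and the amidating monooxygenase Pam finishes many of the active peptides.

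Levels are FPKM as deposited, that is, fragments scaled to transcript length and to library size. A value after ± is the SD (n = 3). Depth, read from the spacing of the lowest values, was about 3700000, 4140000 and 5890000 fragments in libraries 1, 2 and 3. Genes with a mean of at least 1 FPKM, 13337 in all, were tested. Markers of excitatory hippocampal neurons were present, with summed FPKM of 1376, 1449 and 1559 over 10 genes, and so were those of GABAergic neurons, with 415, 360 and 346 over 16 genes. The choroid plexus list, 6 genes of a neighbouring tissue, summed to 398, 1087 and 1312 FPKM, nearly all of it from the transthyretin gene Ttr. In the list for the hypothalamus, 4 of 8 genes, Avp, Oxt, Sim1 and Nkx2-4, were at 0 in all libraries, and the sum was 2.49, 1.01 and 0.14 FPKM.

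The system ranged from some of the most abundant transcripts of the tissue to genes listed at 0. Processing and granule genes were high as a class, a few precursors were very high, and receptors were low. A mean of at least 100 FPKM was reached by 3 of 21 precursors, 3 of 5 granule protein genes, 3 of 6 processing genes and 0 of 25 receptors. Of all 13337 genes with a mean of at least 1 FPKM, 992 reached it. Few genes did, so 0 of 25 receptors is not in itself a low count. The best expressed receptor gene, Adcyap1r1, averaged 35.5 ± 4.74 FPKM. The neuromedin U precursor gene Nmu and the vasopressin receptor gene Avpr1b were listed at 0 in every library.

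**Figure D1:**
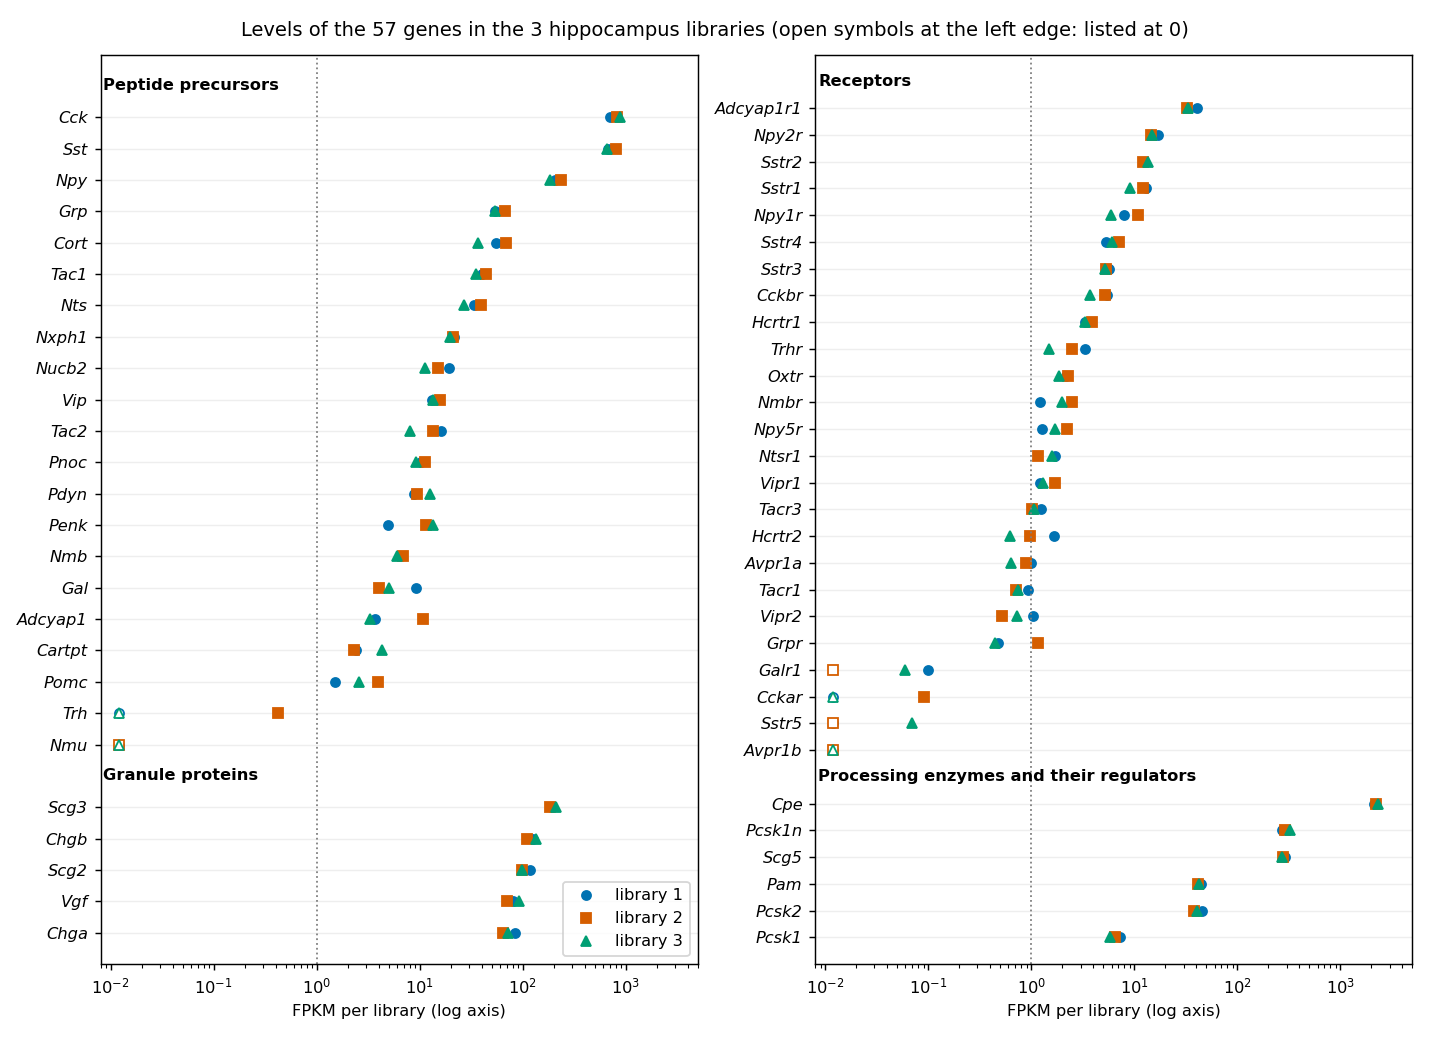
FPKM of each of the 57 genes in the 3 libraries, on a log axis, ordered by mean inside each class; the dotted line marks 1 FPKM. Cpe lies at the right edge with a mean of 2221 FPKM, Cck and Sst lead the precursors, and no receptor gene passes 41 FPKM.

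Each tested gene was set against the median tested gene of its library, which stood at 10.5, 10.3 and 10.2 FPKM, on the scale log2(FPKM + 1). This scale understates differences of low genes. Of the 47 members tested, 18 were higher than that level by more than 2-fold and 11 were lower (limma's treat test with a threshold of 1 log2 unit, p-values adjusted by Benjamini-Hochberg over every tested gene). Over all tested genes the shares were 26.0% higher and 22.3% lower. By class, 7 of 19 tested precursors were higher and 2 lower, 1 of 17 tested receptors was higher and 9 lower, 5 of 5 granule protein genes were higher, and 5 of 6 processing genes were higher. The median difference was 0.41 log2 units for precursors, -1.33 for receptors, 3.22 for granule proteins and 3.29 for processing genes, against -0.01 over all tested genes. Lower calls depended on the filter: 6 of these 11 genes were no longer called with a filter of 0.1 FPKM and 9 with no filter, settings under which the median tested gene is lower. The other 10 members, 2 precursors and 8 receptors, were under 1 FPKM on average and were not tested.

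Further genes of the same system were counted in the same way. Of 16 tested among 35 other peptide receptors, 2 were higher than the median tested gene and 9 lower. The higher ones were the astrocytic neurotensin receptor gene Ntsr2, at 85.6, 118.6 and 111.0 FPKM, and the endothelin receptor gene Ednrb, at 43.7 ± 1.98 FPKM. Of 29 other precursors, only 6 reached 1 FPKM, 0 were higher and 2 lower. The C-type natriuretic peptide gene Nppc led them at 7.99 ± 1.82 FPKM, followed by Npb at 4.98 ± 3.05 and the corticotropin-releasing hormone gene Crh at 4.01 ± 0.879 FPKM. Of 15 dense-core vesicle genes 6 were higher and 3 lower, led by Rab3a at 395 ± 25.5 FPKM, Ptprn at 82.8 ± 11.96 and the priming factor gene Cadps at 56.9 ± 6.56 FPKM. Of 16 tested genes among 19 of other processing and peptide breakdown, 0 were higher and 7 lower, with Qpct at 19.7 ± 1.66, Thop1 at 15.3 ± 1.71 and Nln at 10.6 ± 1.05 FPKM at the top.

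**Figure D2:**
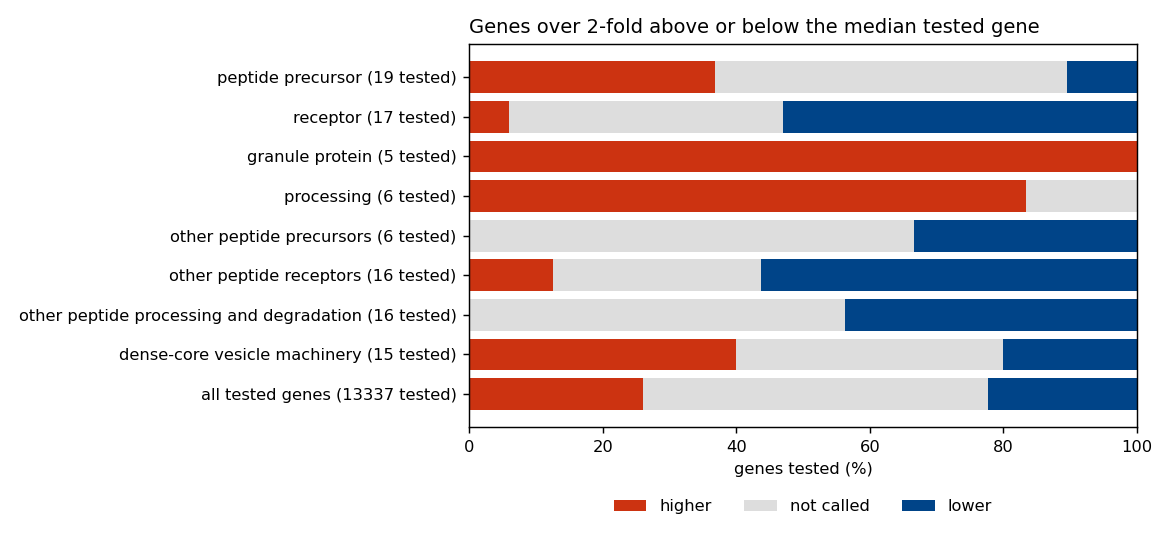
Share of tested genes called more than 2-fold higher or lower than the median tested gene, in percent, for the 4 member classes, the 4 lists of further genes and all tested genes. All 5 granule protein genes are higher, and 9 of 17 receptors are lower.

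Peptide and granule genes are textbook targets of cyclic AMP signalling through CREB, which binds the palindrome TGACGTCA, the cyclic AMP response element. Promoter windows of 300 bases, from 250 before to 50 after an annotated start (RefSeq, GRCm38.p6), were at hand for 46 of the 57 members. More than 1 start was given for 5 members. This palindrome was searched in every window, and a match at any start counted. It reads the same on both strands. It was found in 6 of 46 members (13.0%), against 549 of 27025 genes (2.03%) in the whole promoter table. The shorter motif TGACG, on either strand, which every palindrome also holds, was in 27 of 46 members (58.7%), against 23.0% of all genes. A match describes the letters only and does not show binding. The whole promoter table also holds genes not expressed here, and it was not matched to the members by level, gene type or base content.

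The 6 windows are printed 5′ to 3′ along the gene, with the palindrome in capitals, to show where it lies before the start used. The genes come from all 4 classes.
Sst, chr16, gene on the minus strand, palindrome at -48 to -41: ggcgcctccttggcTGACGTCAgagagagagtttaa
Sstr2, chr11, plus strand, -58 to -51: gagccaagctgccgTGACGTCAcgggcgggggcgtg
Scg2, chr1, minus strand, -68 to -61: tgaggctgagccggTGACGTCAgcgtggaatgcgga
Chgb, chr2, plus strand, -72 to -65: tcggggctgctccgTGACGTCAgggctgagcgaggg
Pcsk1, chr13, plus strand, -78 to -71: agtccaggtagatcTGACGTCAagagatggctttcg
Cartpt, chr13, minus strand, -112 to -105: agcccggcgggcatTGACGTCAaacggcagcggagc
Positions count from the annotated start used for the window. For Sst, Pcsk1 and Cartpt the annotated span of the gene begins further upstream, so the palindrome lies inside that span. The levels of these 6 genes spanned the range of the system, with means of 712 FPKM for Sst, 123 for Chgb, 105 for Scg2, 12.7 for Sstr2, 6.49 for Pcsk1 and 3.00 for Cartpt. The whole Sst window, chr16:23890795-23891094 on the minus strand of GRCm38.p6, is shown because it is a classic promoter in studies of this response.
Sst promoter: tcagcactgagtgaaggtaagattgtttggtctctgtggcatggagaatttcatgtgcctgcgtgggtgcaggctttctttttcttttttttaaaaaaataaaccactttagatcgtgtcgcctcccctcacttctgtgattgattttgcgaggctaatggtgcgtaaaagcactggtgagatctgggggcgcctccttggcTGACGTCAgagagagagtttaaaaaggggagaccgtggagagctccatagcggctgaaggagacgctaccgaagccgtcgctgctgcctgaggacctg

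Among precursors, Cck, the cholecystokinin gene, was at 701, 821 and 889 FPKM in libraries 1, 2 and 3, and Sst, the somatostatin gene, at 674, 808 and 654 FPKM. Npy, the neuropeptide Y gene, was at 207, 234 and 185 FPKM. Together these 3 genes made up 85.1% ± 1.56 of the summed FPKM of the 21 precursors. Cck was above Sst in every library, although their means differed by less than their ranges, which overlapped. Both lay above Npy in every library. By mean level Cck ranked 106 and Sst 140 of the 19046 genes with any value above 0.

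Below them came 4 precursors between 30 and 60 FPKM that were also called higher than the median tested gene. Grp, the gastrin-releasing peptide gene, averaged 58.5 ± 7.38 FPKM and Cort, the gene of the somatostatin relative cortistatin, 53.9 ± 16.4 FPKM. Tac1, which encodes substance P and neurokinin A, averaged 39.9 ± 4.47 FPKM and the neurotensin gene Nts 33.3 ± 6.40 FPKM. Grp and Cort did not differ beyond their spread. A further 10 precursors were not called either way: Nxph1, Nucb2, Vip, Tac2, Pnoc, Pdyn, Penk, Nmb, Gal and Adcyap1, with means between 20.8 FPKM for Nxph1 and 5.90 FPKM for Adcyap1. Nxph1 encodes neurexophilin 1, a secreted ligand of alpha-neurexins, and Nucb2 the precursor of nesfatin-1.

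The lowest tested precursors were Cartpt, the gene of the CART peptide, at 2.41, 2.32 and 4.28 FPKM, and Pomc, the proopiomelanocortin gene, at 1.5, 3.96 and 2.57 FPKM. Both were called lower than the median tested gene (limma adjusted p = 0.0267 and 0.0234), and each call was lost when library 1 was left out (adjusted p = 0.104 and 0.0592), for Cartpt also without library 2 (0.105) and for Pomc also without library 3 (0.0738). The Pomc values rested on about 4, 13 and 12 fragments. The pituitary is a main source of Pomc transcripts. Of its 6 marker genes, Prl, Gh, Cga and Fshb were at 0 in all libraries, Tshb was at 0.19, 0 and 0.73 FPKM, Lhb was at 0.64, 0 and 0 FPKM, and their part in the Pomc values was not tested. Trh, the thyrotropin-releasing hormone gene, was listed at 0, 0.42 and 0 FPKM.

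Each peptide was then set beside the receptors that bind it. Of 27 such pairs 18 could be tested, in which the peptide gene was higher than the receptor gene by more than 2-fold in 16, the receptor gene was higher in 1, and 1 was not called. In each test the peptide gene was compared with every tested gene and p-values were adjusted over all of them. Every comparison with the same peptide shares its noise, so those p-values are too small. The shares of all genes printed beside pairs are also from these tests. Ratios are of FPKM, whereas differences in log2 units are on the scale log2(FPKM + 1), which understates differences of low genes. With the spread of each gene taken from its own levels, an analysis added after the data were seen, the peptide was higher in 15 pairs and the receptor in 1. The SE and adjusted p-values printed for pairs are from that analysis unless marked as limma. It takes both genes of a pair as independent, so their pairing inside libraries is not used. Its SE was below that of limma for some pairs, such as Cort and Sstr2 (0.20 against 0.32). For others it was above, such as Npy and Npy1r (0.19 against 0.17).

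**Figure D3:**
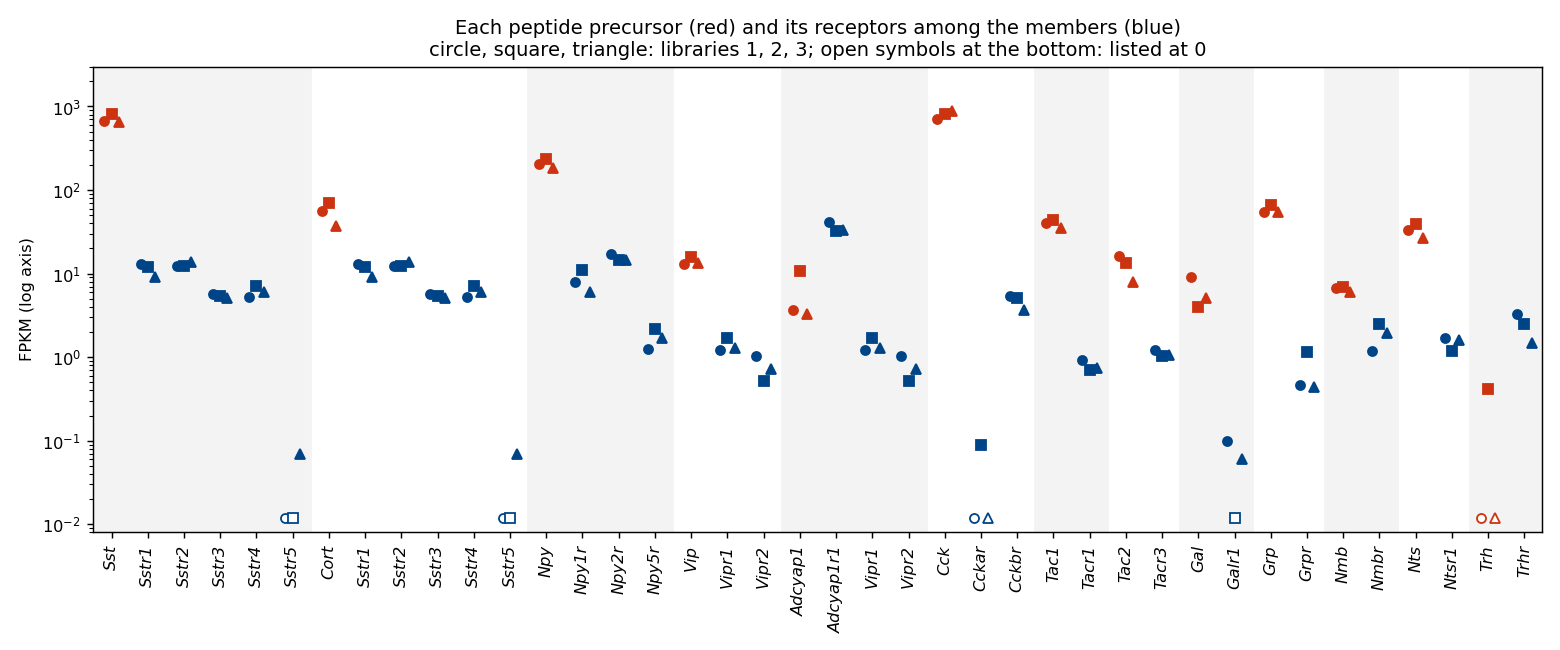
FPKM of each peptide gene (red) and of its receptors among the members (blue) in the 3 libraries, on a log axis. Peptide genes lie above their receptors in all 3 libraries apart from Adcyap1, which lies below Adcyap1r1, and Trh, which lies below Trhr.

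Somatostatin and cortistatin share the receptors Sstr1 to Sstr5, which couple to inhibitory G proteins. Sstr2 was the highest of them at 12.3, 12.2 and 13.6 FPKM. Sstr1 followed at 13.0, 12.2 and 9.01 FPKM, and its range overlapped that of Sstr2. Sstr4 averaged 6.16 ± 0.916 FPKM and Sstr3 5.38 ± 0.284 FPKM, which did not differ beyond their spread, and both lay below Sstr1 and Sstr2 in every library. Sstr5 was listed at 0, 0 and 0.07 FPKM, where 3 fragments would be 0.329, 0.293 and 0.204 FPKM. Reads of Sstr2 are less certain than the others, because its span overlaps that of the protein-coding gene Slc39a11, at 19.1, 11.8 and 13.6 FPKM, and whether counting used strand was not given.

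Sst was 56.3 ± 9.11 times Sstr2 and 63.7 ± 10.6 times Sstr1, and the 4 tested receptors were 5.70 to 6.80 log2 units lower (adjusted p at most 9.66e-07, Sst higher in 3 of 3 libraries). Sst was higher by over 2-fold than 97.3% of all genes tested and lower by over 2-fold than 0.277%, so these calls are close to what most genes gave. Cort was 4.3 ± 1.501 times Sstr2 and 9.99 ± 2.93 times Sstr3, higher than all 4 tested receptors (adjusted p at most 0.00487), and it exceeded 62.8% of all genes by over 2-fold. Its call against Sstr2 was lost without library 1 (limma adjusted p = 0.0609). It was also lost with FPKM taken over the full transcript length (0.107), where the difference was 1.46 log2 units in place of 1.96. Sst was 13.9 ± 3.41 times Cort, a difference of 3.74 log2 units (SE 0.21, adjusted p = 2.96e-05).

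The Y receptors of neuropeptide Y differed in level among themselves. Npy2r, the mainly presynaptic Y2 receptor gene, stood at 17.1, 14.7 and 14.7 FPKM and Npy1r, the Y1 receptor gene, at 7.93, 10.9 and 5.99 FPKM. Npy2r was above Npy1r in 3 of 3 libraries, by 0.86 log2 units (SE 0.19), which was not shown to exceed 2-fold. Npy5r, the Y5 receptor gene, was lowest at 1.26, 2.20 and 1.69 FPKM. Npy exceeded all 3, from 13.5 ± 2.11 times for Npy2r to 127 ± 32.5 times for Npy5r (adjusted p at most 9.91e-06), as it exceeded 90.9% of all genes by over 2-fold, while 1.51% exceeded Npy by as much.

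Cholecystokinin acts in the forebrain mainly through the CCK2 receptor. Its gene Cckbr stood at 5.46, 5.13 and 3.69 FPKM, whereas Cckar, the CCK1 receptor gene, was listed at 0, 0.09 and 0 FPKM. Cck was 176 ± 58.0 times Cckbr. On the scale log2(FPKM + 1) it was 7.13 units higher (SE 0.16, adjusted p = 7.02e-07), the widest tested gap of the 18 pairs. Cck was also higher by over 2-fold than 97.6% of all genes and lower by over 2-fold than 0.225%.

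Pituitary adenylate cyclase-activating peptide, PACAP, and vasoactive intestinal peptide share the receptors encoded by Vipr1 and Vipr2, and PACAP alone acts strongly on PAC1, encoded by Adcyap1r1. Adcyap1, the PACAP gene, was at 3.66, 10.7 and 3.31 FPKM, and Adcyap1r1 at 40.9, 32.1 and 33.4 FPKM. The receptor gene was above its peptide gene in 3 of 3 libraries, by 2.55 log2 units (SE 0.32, adjusted p = 0.0124). The limma fit to the differences inside libraries gave a larger SE of 0.50 (limma adjusted p = 0.00464). Adcyap1r1 was the only receptor gene above its peptide gene among the 18 tested pairs. Of the 17 tested member receptors it was the only one called higher than the median tested gene. Adcyap1 was lower by over 2-fold than 26.8% of all genes, and higher by over 2-fold than 0.00% of them. With a filter of 0.1 FPKM in place of 1 FPKM that second share was 16.7%. The call was lost without library 1 (limma adjusted p = 0.218) or library 3 (0.147), either of which leaves library 2, where Adcyap1 was highest, as 1 of 2 libraries.

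Vip, at 13.1, 15.7 and 13.5 FPKM, was 10.2 ± 0.80 times Vipr1, at 1.21, 1.69 and 1.30 FPKM (2.65 log2 units, SE 0.14, adjusted p = 0.000422). It exceeded 30.7% of all genes by more than 2-fold and was lower by as much than 19.8%. Vipr2 was at 1.04, 0.52 and 0.72 FPKM and was not tested. Adcyap1 against Vipr1 was not called (1.37 log2 units, SE 0.32, adjusted p = 0.338), nor was Adcyap1 against Vip, which was higher in 3 of 3 libraries (difference -1.28 log2 units, SE 0.32, adjusted p = 0.429). Without library 2 that difference was -1.67 log2 units and passed the test (limma adjusted p = 0.00701).

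The tachykinins act on neurokinin receptors, substance P on NK1 and neurokinin B on NK3. Tac1 was at 40.3, 44.2 and 35.3 FPKM and its receptor gene Tacr1 at 0.92, 0.71 and 0.75 FPKM, so Tac1 was 51.1 ± 9.86 times Tacr1, with no test. Tac2, the neurokinin B gene, was at 16.1, 13.5 and 7.98 FPKM and Tacr3 at 1.23, 1.02 and 1.05 FPKM. Tac2 was 11.3 ± 3.22 times Tacr3 (2.64 log2 units, SE 0.21, adjusted p = 0.00306), and higher by over 2-fold than 20.1% of all genes. Tac1 was 3.40 ± 0.968 times Tac2 (1.64 log2 units, SE 0.21, adjusted p = 0.0238), and by over 2-fold higher than 60.4% of all genes and lower than 7.33%. Tac2 is also a gene of the medial habenula, a neighbour of the hippocampus. The list of 10 thalamus and habenula markers summed to 33.1, 30.4 and 32.1 FPKM, led by Prkcd at 12.5 ± 1.68, Slc17a6 at 6.61 ± 1.54 and Nwd2 at 5.80 ± 1.71 FPKM, with Gbx2 and Pou4f1 at 0 in all libraries. Their part in the Tac2 values was not tested.

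The bombesin-like peptides were both detected. Grp was at 54.5, 67.0 and 54.0 FPKM, against 0.47, 1.15 and 0.44 FPKM for its receptor gene Grpr, which rested on about 4, 11 and 6 fragments. Nmb, the neuromedin B gene, was at 6.66, 6.93 and 6.09 FPKM and its receptor gene Nmbr at 1.20, 2.49 and 1.97 FPKM. Nmb was 3.81 ± 1.52 times Nmbr, the smallest gap among the called pairs of a peptide and its receptor. The difference was 1.41 log2 units (limma adjusted p = 0.0405, where Nmb exceeded 10.9% of all genes by over 2-fold). With the spread of each gene taken from its own levels the adjusted p was 0.0749, and the call was also lost without library 1 (0.209), without library 3 (0.0607) and with FPKM over the full transcript length (0.744, at 1.02 log2 units). Grp was 8.90 ± 0.744 times Nmb (2.97 log2 units, SE 0.14, adjusted p = 5.94e-05), and by over 2-fold higher than 70.5% of all genes and lower than 5.14%.

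Neurotensin has a high-affinity receptor encoded by Ntsr1 and another encoded by Ntsr2. Nts was at 33.5, 39.6 and 26.8 FPKM and Ntsr1 at 1.69, 1.17 and 1.60 FPKM, a ratio of 23.4 ± 9.10 (3.77 log2 units, SE 0.16, adjusted p = 0.000152), with 52.4% of all genes lower than Nts by over 2-fold and 8.05% higher by over 2-fold. Ntsr2 was above Nts and above Ntsr1 in every library. Galanin differed, because its gene Gal stood at 9.18, 4.02 and 5.06 FPKM while all its receptors were near 0. Galr1 was at 0.10, 0 and 0.06 FPKM, Galr2 at 0.32, 0 and 0.20 FPKM and Galr3 at 0, 0 and 0.17 FPKM. Gal was called higher by over 2-fold than 0.780% of all tested genes and lower by over 2-fold than 29.7%.

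Opioid peptides come from Pnoc, Pdyn, Penk and Pomc, of which Pomc was the lowest in every library. Pnoc, the nociceptin gene, was at 10.3, 11.2 and 9.18 FPKM, Pdyn, the dynorphin gene, at 8.76, 9.38 and 12.5 FPKM, and Penk, the enkephalin gene, at 4.97, 11.7 and 13.6 FPKM. Penk was above Pdyn in 2 of 3 libraries, and the genes were not shown to differ by more than 2-fold (-0.10 log2 units, SE 0.30, adjusted p = 1.00). Penk was higher by over 2-fold than 8.43% of all genes. Of their receptors, the nociceptin receptor gene Oprl1 was highest at 14.4, 13.2 and 13.6 FPKM, above Pnoc in 3 of 3 libraries. The delta receptor gene Oprd1 was at 1.5, 1.20 and 0.85 FPKM, the kappa receptor gene Oprk1 at 1.19, 0.27 and 0.60 FPKM, and the mu receptor gene Oprm1 was listed at 0, 0.84 and 0 FPKM. For Pomc, the melanocortin receptor gene Mc4r was at 1.06, 1.49 and 1.65 FPKM and Mc3r at 0, 0 and 0.14 FPKM. For Nmu, the receptor genes Nmur1 and Nmur2 were at 0, 0 and 0 FPKM and at 0, 0.08 and 0.11 FPKM.

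Some receptor genes stood beside peptide genes at or near 0. Hcrtr1, an orexin receptor gene, was at 3.35, 3.85 and 3.31 FPKM and Hcrtr2, the other one, at 1.67, 0.96 and 0.62 FPKM, while the orexin gene Hcrt, made in the hypothalamus, was at 0.83, 0.72 and 0 FPKM. Hcrtr1 was above Hcrtr2 in 3 of 3 libraries, but not by more than 2-fold as tested (1.14 log2 units lower for Hcrtr2, SE 0.18, adjusted p = 0.302), while 69.4% of all genes were called higher than Hcrtr2 by over 2-fold. The call of Hcrtr1 below the median tested gene (limma adjusted p = 0.0172) was lost without library 1 (0.0651) or library 3 (0.0746). Oxtr, the oxytocin receptor gene, stood at 2.17, 2.25 and 1.84 FPKM and Avpr1a, the vasopressin V1a receptor gene, at 1.00, 0.89 and 0.63 FPKM, while Oxt and Avp were at 0 in all libraries. Trhr, at 3.29, 2.46 and 1.47 FPKM, likewise stood beside a peptide gene at or near 0. These receptor genes rested on few fragments, about 9 in each library for Avpr1a and 41, 34 and 29 for Trhr.

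The granule proteins were all abundant. Scg3, the secretogranin III gene, whose product carries other granins into granules, was at 190, 186 and 210 FPKM. Chgb, the chromogranin B gene, was at 127, 109 and 134 FPKM, Scg2, the secretogranin II gene, at 117, 99.3 and 99.0 FPKM, Vgf at 81.2, 69.8 and 91.2 FPKM and Chga, the chromogranin A gene, at 84.8, 64.8 and 71.8 FPKM. Scg3 was the highest in every library, and Chgb and Scg2 lay above Vgf and Chga in every library. Chgb was 1.68 ± 0.187 times Chga and Scg3 1.87 ± 0.25 times Scg2, neither of which was shown to exceed 2-fold (adjusted p = 0.999 and 0.861). By over 2-fold, 84.5% of all tested genes were called lower and 2.53% higher than Chgb, and 82.4% lower and 2.99% higher than Scg2.

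In the processing path, Cpe, the carboxypeptidase E gene, stood far above the rest at 2105, 2218 and 2341 FPKM and ranked 26 among all genes above 0. It made up 77.0% ± 0.718 of the summed FPKM of the 6 genes. Cpe was 52.0 ± 4.40 times Pam, at 44.8, 41.3 and 42.4 FPKM (5.66 log2 units, SE 0.13, adjusted p = 2.73e-07), and by over 2-fold higher than 99.4% of all genes and lower than 0.0150%. Pam is the enzyme of the next step, amidation.

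The convertases were lower and unequal. Pcsk2, the PC2 gene, was at 45.1, 37.9 and 40.5 FPKM and Pcsk1, the PC1/3 gene, at 7.30, 6.42 and 5.75 FPKM. Pcsk2 was 6.38 ± 0.587 times Pcsk1 (2.49 log2 units, SE 0.13, adjusted p = 0.000168), and by over 2-fold higher than 61.8% of all genes and lower than 7.24%. Pcsk1 was the member of the path not called higher than the median tested gene. Regulators of both enzymes exceeded their enzymes: Scg5, which encodes the PC2 chaperone 7B2, was at 289, 275 and 270 FPKM, and Pcsk1n, which encodes the PC1/3 inhibitor proSAAS, at 271, 289 and 320 FPKM. The span of Pcsk2 overlaps an antisense gene, Pcsk2os1, at 3.90, 2.89 and 1.88 FPKM, whose reads cannot be told apart from those of Pcsk2 if counting ignored strand.

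Members varied between libraries about as much as other genes. The median coefficient of variation was 12.6% over the 47 tested members, against 13.8% over all tested genes. By class it was 19.2% for precursors, 18.2% for receptors, 10.4% for granule proteins and 6.92% for processing genes. A coefficient over 40% was found for 5 of 47 members (10.6%), against 10.3% of all tested genes. These 5 were Adcyap1 (70.9%), Hcrtr2 (49.5%), Pomc (46.1%), Penk (44.9%) and Gal (44.8%).

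**Figure D4:**
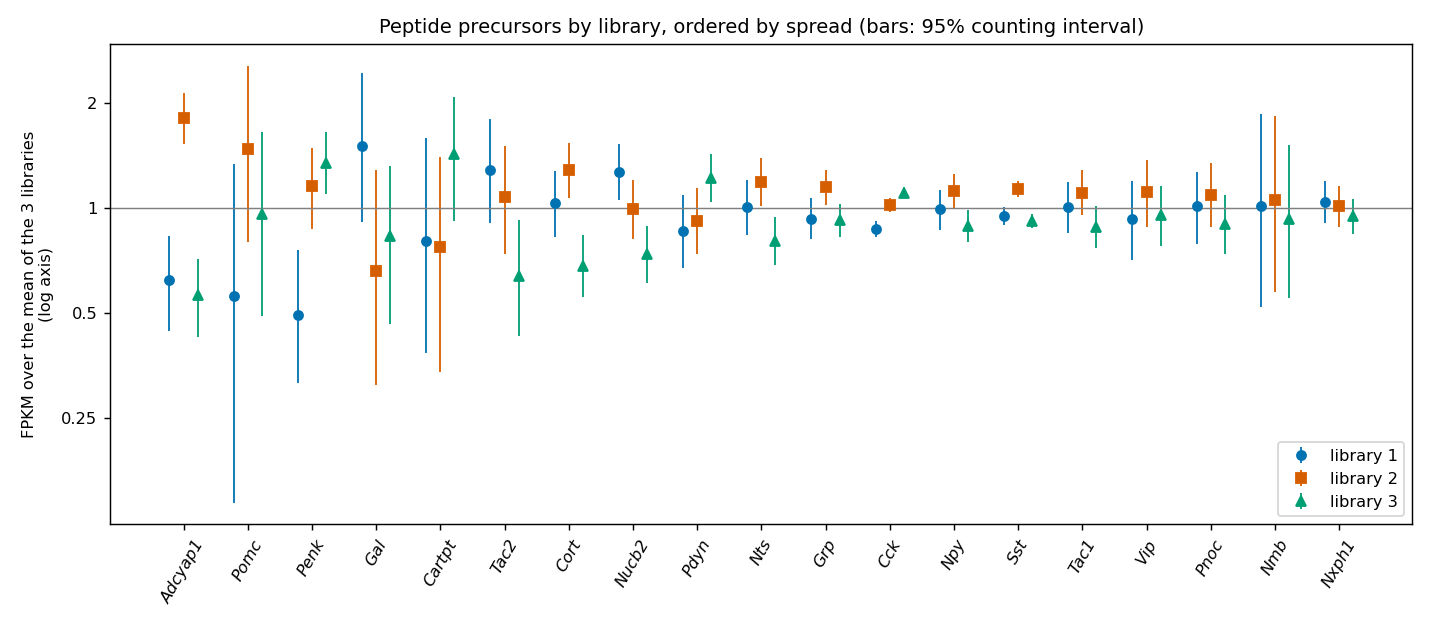
FPKM of the 19 tested precursors in each library, divided by the mean of the 3 libraries, on a log axis and ordered by spread, with bars for the 95% Poisson interval of the estimated fragments. Adcyap1 is high in library 2 and Penk low in library 1, with bars that do not reach those of the other libraries. Bars of some libraries are also apart for Sst, Cort, Npy, Cck, Nts and Nucb2.

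Estimated fragment numbers separate counting error from other spread. Adcyap1 rested on about 42, 139 and 61 fragments, and its 95% Poisson intervals were 2.62 to 4.92, 9.01 to 12.7 and 2.51 to 4.22 FPKM, so library 2 stood apart from both others. Penk rested on about 22, 57 and 97 fragments, with intervals of 3.16 to 7.64, 8.77 to 15 and 11.1 to 16.6 FPKM, so library 1 stood apart. The choroid plexus gene Ttr was likewise lowest in library 1, at 392, 1071 and 1296 FPKM, and its part in the Penk values was not tested. For Gal (about 18, 9 and 16 fragments), Pomc and Tac2 (about 35, 33 and 29), the intervals of the 3 libraries overlapped. Such intervals cover counting error only. Intervals of at least 1 pair of libraries also did not overlap for Sst, Cort, Npy, Cck, Nts and Nucb2. With Adcyap1 and Penk these were 8 of 21 precursors, among 19 of 57 members that included all 5 granule protein genes. The share over all genes was not counted, so these counts do not set the members apart from other genes. Such intervals narrow as fragments rise: those of Cpe, on about 14383, 17050 and 25883 fragments, were apart in all 3 pairs of libraries.

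Precursors tended to be highest in library 2. Of 19 tested precursors 11 (57.9%) had their highest value there, against 32.6% of all tested genes, among them Sst, Cort, Npy, Vip, Tac1, Grp and Nts. Precursor transcripts were short, with a median of 1238 bases against 3078 bases over all tested genes. With transcripts under 1500 bases, 8 of 13 precursors (61.5%) were highest in library 2, against 40.1% of all tested genes. With transcripts of at least 1500 bases, these were 3 of 6 (50%) against 31.1%. Of the GABAergic marker genes 10 of 15 tested were highest in library 1 and 3 in library 2. Receptors were highest in library 1 in 9 of 17 cases (52.9%, against 36.5% of all tested genes) and in library 3 in 1 (5.88%, against 30.9%). The part of transcript length in these values was not tested, and fewer cells of a type and less RNA per cell cannot be told apart in whole tissue.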

How the data were processed

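Total RNA of 3 hippocampus libraries was read as paired ends on a NovaSeq, per the labels' protocols. The authors deposited FPKM values, 1 column per library, per the file headers. Bowtie2 and GRCm38 (mm10) are named in the submitters' processing notes. For the counting tool, annotation and strand setting, nothing is stated in those notes or labels. Each column carries a library number that its sample title shares.

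Tests used limma 3.58.1 in R 4.3.3 on log2(FPKM + 1) over the 13337 genes with a mean of at least 1 FPKM. They were against the median tested gene or against 1 gene (treat, null of 1 log2 unit, two-sided, Benjamini-Hochberg, calls under 0.05). The test against the median gene was tried on simulated data. In the simulation of the test against 1 gene, that gene had no noise, so shared noise was not tried. The analysis with the spread of each gene taken from its own levels was not simulated. Figures used matplotlib 3.10.9 in Python 3.11.15. Depth was fitted on 8726 genes with 1 annotated transcript (GENCODE M21, at least 800 bases): 93.3%, 92.7% and 91.1% of values up to 4 fragments came within 0.15 of whole numbers, with 270, 260 and 240 bases taken off the length. Fragment numbers use the longest coding transcript. Every member is named, with the 3 highest genes of each list of further genes of the system and the missing binding partners. Members, pairs and lists were chosen with earlier results of these data known. The settings varied were the pseudocount, the filter, the null, the scaling, the level compared with, the length and the libraries used.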

Additional observations from a re-analysis of the deposited data

How the results depend on the processing

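Of 47 tested members, 18 were above the median tested gene and 11 below it. These counts became 11 and 21 against the upper quartile in place of the median, where 11.1% of all tested genes were above and 51.7% below. The count below was 18 with a null of no difference, where 43.0% of all tested genes were below. The receptor above its peptide became 2 with a filter of 0.1 FPKM or with no filter, which admit the pair of Trh and Trhr. The cause of the other changes was not tested. Leaving out 1 library gave 18 members above in each case and 8 to 10 below, 14 to 16 peptides above their receptors, 0 to 1 receptors above their peptides, and 5 related pairs with the first gene higher in each case, with Adcyap1 below Vip also called without library 2. With the lower pseudocount of 0.1, and with library scaling factors, all 76 member and pair results kept their direction and their side of the threshold. The filter of 0.1 FPKM ended the calls of Pomc, Cartpt, Nmbr, Trhr, Hcrtr1 and Oxtr below the median gene, and no filter also ended those of Npy5r, Vipr1 and Ntsr1. These settings added calls of 2 and 5 members above it, Nxph1 and Npy2r under both. No result of a named gene reversed where it was called. No pairing of samples between groups was possible because the samples form 1 group. The limma tests of gene pairs were on differences inside libraries. Values under 1 FPKM rested on few fragments, and order among them was not resolved at this depth.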
